A study of Mus musculus with 69 samples.

Results

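The subject is the lung transcriptome of mice 28 days after 18 µg of NRCWE-002, a titanium dioxide nanoparticle with a positively charged surface, set against mice that had been given the vehicle and were examined on the same day. The members were taken from the sample titles and comprised 5 exposed and 4 vehicle arrays, or 9 of the 69 arrays in the series, with 1 mouse on each array. The series consisted of 14 groups in which female C57BL/6 mice had received NRCWE-002, the uncharged NRCWE-001 or vehicle, at 18, 54 or 162 µg of particle, with lungs collected on day 1 or day 28. The questions were which genes differed late after the lowest dose, and how far the animals of the exposed group differed from one another. Per the labels and the methods of the study, mice arrived at 5 to 7 weeks of age and were acclimatised for 1 to 3 weeks, and each mouse received a single dose into the trachea. The particles had been dispersed in water with 2% serum, which was also what the vehicle mice received, although their titles name water alone. RNA came from a small frozen section of lung, so the share of airway, vessel or adjoining tissue in a section could vary, and in such bulk RNA fewer cells of a type and less RNA per cell cannot be told apart.

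Inhaled or instilled particles are taken up by alveolar macrophages, and chemokines then draw in further leukocytes. When type 2 cytokines act on the airway, through the transcription factor STAT6, club cells turn into mucus-producing goblet cells, and macrophages make chitinase-like proteins, resistin-like molecules and the eotaxins that attract eosinophils. Serum amyloid A proteins belong to the acute-phase response, which the lung mounts locally after particles.

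Every value below is a log2 ratio of lung RNA to a common reference RNA, so 1 unit is a 2-fold difference, and only differences between mice carry a comparison for a gene. The lung markers were high in all 9 mice. Sftpc, the surfactant protein of alveolar type 2 cells, was 7.19 to 8.24 in exposed and 7.35 to 8.33 in vehicle mice, and Ager, the receptor of alveolar type 1 cells, was 5.46 to 5.87 and 5.57 to 5.92. The share of spots well above background in the lung channel of the 9 arrays was 65.0% to 73.9%.

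No gene passed the threshold between exposed and vehicle mice. Of 17628 genes tested with limma, 0 (0%) had an adjusted p below 0.05, and the smallest adjusted p was 0.52. At an unadjusted p below 0.05 there were 566 genes that were higher in exposed mice (3.21% of the genes tested) and 505 that were lower (2.86%), and the median difference over all genes was -0.00. Without exposed mouse 2 these counts were 469 and 304, and with the 9 arrays alone they were 282 and 244. A fold above 2 was reached by 84 genes. The exposed mice all lay above all vehicle mice for 114 genes (0.647%) and all lay below them for 141 genes (0.8%). Genes below were named in part for such separation, so their lack of overlap is a description. Without exposed mouse 3 there were 12 genes with an adjusted p below 0.05, and without exposed mouse 4 there was 1, whereas the count was 0 when any other mouse of the 9 was left out. The largest differences were carried by some exposed mice and not by others, and values are therefore given mouse by mouse. All p-values are 2-sided. Unless the 9 arrays alone are named, the p-values and standard errors rest on the spread between mice within all 14 groups. The median SD over genes ran from 0.106 to 0.209 in these groups and was 0.195 in the exposed group. For a gene that divided the exposed mice, the shared spread can thus be smaller than their own. The main fit left out the slide. With the 9 arrays alone the smallest adjusted p by limma was 0.9985.

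Clca1 and several other genes of the airway surface and its mucus were high in some of the exposed mice. Clca1, a secreted protein of goblet cells, had log2 ratios of 9.33, 9.52, 0.36, 0.66 and 6.83 in exposed mice 1 to 5, against 1.23, -0.03, 0.08 and 0.10 in vehicle mice 1 to 4. Exposed mice 1, 2 and 5 thus stood far above every vehicle mouse, and exposed mice 3 and 4 lay within the vehicle range. The mean difference was 4.99 ± 1.43 (SE, limma; unadjusted p = 0.000936, adjusted p = 0.564), with an SD of 4.54 in exposed and 0.59 in vehicle mice. Clca1 was well above background in all 5 exposed mice and in 1 of the 4 vehicle mice.

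Fbp1, the gluconeogenic enzyme fructose-1,6-bisphosphatase, was divided in the same way, with 4.88, 4.54, 0.20, 0.28 and 4.11 in exposed mice 1 to 5 and values from -0.17 to 0.35 in vehicle mice. Its difference was 2.70 ± 0.65 (SE; limma unadjusted p = 0.000111, adjusted p = 0.52). Slc26a4, the anion exchanger pendrin of the airway surface, was 6.19, 5.15, 1.73, 1.93 and 4.85 in exposed mice and 1.84 to 2.59 in vehicle mice, a difference of 1.71 ± 0.86 (SE; unadjusted p = 0.0502). For both genes the same 3 exposed mice lay above the vehicle range and the other 2 did not. Agr2, a disulfide isomerase needed for mucin folding, was 3.51, 2.53, 0.49, 0.59 and 2.18 in exposed mice and 0.27 to 0.87 in vehicle mice, a difference of 1.31 ± 0.49. Muc5ac, the gel-forming mucin of goblet cells, was 1.43, 0.96, 0.14, 0.24 and 0.88 in exposed mice and -0.02 to 0.37 in vehicle mice, with a difference of 0.61 ± 0.17 (SE; limma unadjusted p = 0.00052, adjusted p = 0.54). Exposed mice 1, 2 and 5 were thus the highest in all 5 genes. These genes were brought together with their values known, so their agreement is a description. The value of Muc5ac is the midpoint of 2 probes that disagreed, with differences of 1.32 and -0.11, and the settings tried gave 0.43 to 1.32.

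**Figure D1:**
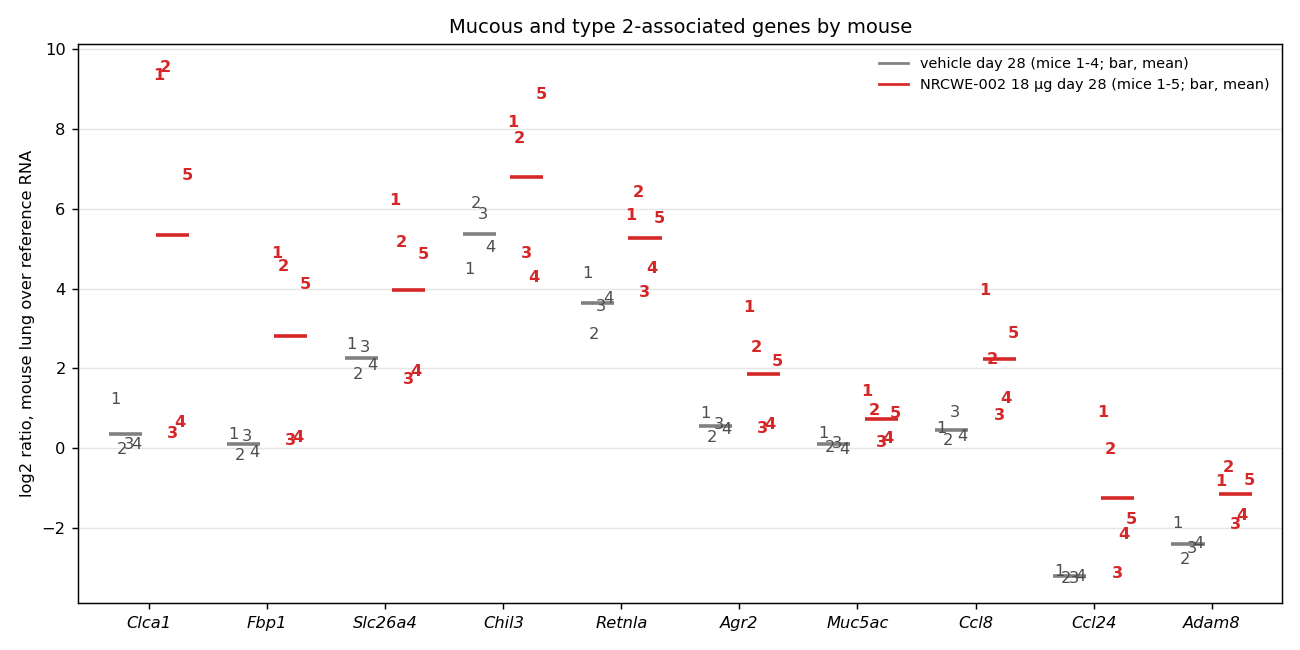
Log2 ratio of lung over reference RNA for 10 genes of mucous secretion and alternative macrophage activation in each mouse, with the replicate number as the symbol (grey, vehicle; red, 18 µg NRCWE-002) and a bar for the group mean. Exposed mice 1, 2 and 5 stand above the vehicle mice for all 10 genes, while exposed mice 3 and 4 lie in or close to the vehicle range for most of them. The genes were brought together with their values known.

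The other secretory genes of the airway behaved differently, because 1 vehicle mouse was also high. Muc5b, the mucin made at rest, was 4.90, 5.54, 3.69, 3.62 and 3.98 in exposed mice and 5.04, 0.97, 1.25 and 0.89 in vehicle mice. Scgb3a1, a secretoglobin of the larger airways, was 4.86 to 6.56 in exposed mice and 5.69, 1.68, 2.97 and 2.39 in vehicle mice. Bpifb1 and Tff2, both secreted by airway glands and surface cells, gave 3.06 and 2.75 in vehicle mouse 1 and no more than 0.37 in vehicle mice 2 to 4, with 1.74 to 3.50 and 1.71 to 3.07 in exposed mice. All 5 exposed mice and vehicle mouse 1 were therefore high for these 4 genes, and vehicle mice 2, 3 and 4 were low. Scgb1a1, the main product of club cells, was not so divided, with 6.39 to 7.64 in exposed and 6.57 to 7.61 in vehicle mice (difference -0.26 ± 0.37, SE), nor was Foxj1, the regulator of ciliated cells, at 0.38 ± 0.28. Of the 12 measured genes of the club and secretory cell list, 7 were higher at an unadjusted p below 0.05 (against 3.21% of all genes). None was lower, and the median difference was 1.71. Leaving out 1 mouse at a time put the count of higher genes between 3 and 10, the lowest without vehicle mouse 2 or 4 and the highest without vehicle mouse 1.

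Cardiac muscle genes moved with those airway genes in most of these mice. Myl7, the atrial myosin light chain that is also made by the muscle sleeve of the pulmonary veins, was 5.94, 6.86, 5.75, 5.92 and 4.08 in exposed mice and 6.32, 2.93, 3.01 and 2.82 in vehicle mice. Of 21 cardiac muscle genes 11 were higher at an unadjusted p below 0.05 (against 3.21% of all genes) and 0 were lower, with a median difference of 1.55. The mean shift of the list from the vehicle mean was 2.62, 2.04, 1.25, 1.72 and -0.06 in exposed mice 1 to 5 and 1.43, -0.45, -0.46 and -0.52 in vehicle mice 1 to 4. The cardiac list was thus high in exposed mice 1 to 4 and vehicle mouse 1. Exposed mouse 5 was at the vehicle mean, below vehicle mouse 1 and above the other vehicle mice. The list shares Ckm and Myl1 with the skeletal muscle list. Both exceeded the highest vehicle mouse by more than 1 log2 unit in exposed mouse 1 alone. The part of skeletal muscle RNA in the cardiac shift of exposed mouse 1 was not tested. The secretory list ran 2.51, 2.93, 0.97, 0.78 and 1.48 in exposed mice and 1.56, -0.55, -0.38 and -0.63 in vehicle mice. The count of 11 cardiac genes was 3 without exposed mouse 1, 17 without vehicle mouse 1 and between 1, without vehicle mouse 4, and 18, without exposed mouse 5, over the mice left out. The part of vessel and airway content of the section in the values of Muc5b, Scgb3a1, Bpifb1 and Tff2 was not tested. Exposed mouse 5 had Clca1 of 6.83 and Fbp1 of 4.11 at a cardiac shift of -0.06 and a secretory shift of 1.48. The cardiac shifts of vehicle mice 2 to 4 were lower, at -0.45, -0.46 and -0.52, and their Myl7 was 2.82 to 3.01 against 4.08. Vehicle mouse 1 had Clca1 of 1.23 and Fbp1 of 0.35 at a cardiac shift of 1.43 and a secretory shift of 1.56. For Clca1 and Fbp1, too, the part of tissue content was not tested.

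Genes of alternative macrophage activation followed the mucous genes. Of 19 measured, 10 were higher at an unadjusted p below 0.05, against 3.21% of all genes, and 0 were lower, and their median difference was 0.30. The 10 were Ccl24, Retnla, Pdcd1lg2, Ccl17, Clec10a, Cd163, Chil4, Chil3, Fn1 and Arg1, of which Pdcd1lg2 was not well above background in any vehicle mouse. The mean shift of the list was 1.26, 0.90, -0.07, 0.08 and 0.60 in exposed mice 1 to 5 and between -0.16 and 0.11 in vehicle mice. The count was 3 without exposed mouse 1, 6 without vehicle mouse 2, and 3 when the spread was estimated from the 9 arrays alone.

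Retnla, the resistin-like molecule that marks alternatively activated macrophages, was 5.84, 6.39, 3.91, 4.50 and 5.74 in exposed mice and 4.38, 2.85, 3.55 and 3.75 in vehicle mice, a difference of 1.64 ± 0.55 (SE; limma unadjusted p = 0.00415, adjusted p = 0.72). Chil3, a chitinase-like protein of macrophages, was 8.15, 7.75, 4.88, 4.28 and 8.84 against 4.47, 6.14, 5.84 and 5.04, a difference of 1.41 ± 0.66, and its near-identical copy Chil4 was 7.05, 5.49, 4.26, 3.94 and 6.63 against 3.90 to 4.69. Exposed mouse 5 had the highest Chil3 of the 9 mice. The probe signals of these copies cannot be separated with certainty, so each value may hold some of the other. Arg1, the arginase of alternatively activated macrophages, reached 2.59, 1.39 and 1.49 in exposed mice 1, 2 and 5, and was 0.42 and 0.49 in exposed mice 3 and 4 and 0.45 to 0.82 in vehicle mice. The type 2 cytokines that induce Arg1 and Retnla were also measured. Il13 differed by 0.12 ± 0.07 (SE; unadjusted p = 0.102) and Il4 by 0.03 ± 0.05 (SE; unadjusted p = 0.555), with all 9 values of Il13 between -0.26 and 0.14.

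CC chemokines were highest in exposed mice 1, 2 and 5. Of 16 measured, 5 were higher at an unadjusted p below 0.05 (against 3.21% of all genes) and 0 were lower, with a median difference of 0.36. Ccl24, also named eotaxin-2, was 0.90, -0.02, -3.13, -2.15 and -1.77 in exposed mice and -3.27 to -3.09 in vehicle mice. Exposed mice 1, 2, 4 and 5 lay above all vehicle mice and exposed mouse 3 lay within them. The difference was 1.97 ± 0.49 (SE; limma unadjusted p = 0.000159, adjusted p = 0.52), and the SD was 1.64 in exposed and 0.08 in vehicle mice. Ccl8, a monocyte and eosinophil attractant, was 3.96, 2.22, 0.83, 1.24 and 2.88 against 0.19 to 0.89, and Ccl11, eotaxin-1, was 2.37, 0.91, 0.53, 1.20 and 0.89 against 0.14 to 0.73. Exposed mouse 3 was the lowest of the exposed mice for both and lay within the vehicle range. Ccl17, a ligand of the receptor of type 2 helper cells, was 4.67, 3.66, 1.55, 1.66 and 2.67 against 1.41 to 1.93, and Ccl9 was 1.41, 0.97, -0.66, -0.01 and 0.82 against -0.68 to -0.29. Without exposed mouse 1 the list held 3 such genes. Adam8, a protease of activated leukocytes, was -0.83, -0.48, -1.90, -1.69 and -0.80 in exposed mice and -2.79 to -1.89 in vehicle mice, a difference of 1.25 ± 0.34 (SE; limma unadjusted p = 0.000505). Prg2, the major basic protein of eosinophils, was 1.01, 0.27, -0.27, 0.84 and 0.10 against -0.39 to 0.04, well above background in 4 exposed and 2 vehicle mice, and Siglecf, a marker of alveolar macrophages and eosinophils, differed by -0.48 ± 0.25 (SE; unadjusted p = 0.064).

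Promoter sequence was examined because Retnla, Ccl17 and the mucous genes above are known responders to type 2 cytokines. The 14 genes searched were picked after their values were seen. Of these, 9 had a window of 250 bases before the start in the RefSeq table of build GRCm38.p6, and 2 of the 9 windows held TTCNNNNGAA, the STAT6-type motif, which reads alike on both strands. The motif was found in 1585 of 27025 windows (5.86%). The stretches around the matches are given on the + strand, 5′ to 3′, with the motif in capitals. For Retnla the motif lay 145 to 136 bases before the start, within the stretch chr16:48842434-48842503, and for Ccl17 it lay 154 to 145 bases before it, within the stretch chr8:94810269-94810338.
Retnla: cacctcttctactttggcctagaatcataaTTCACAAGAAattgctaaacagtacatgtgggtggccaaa
Ccl17: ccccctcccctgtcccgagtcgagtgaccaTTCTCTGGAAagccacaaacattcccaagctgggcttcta
A match is a description of letters, and Fbp1, Slc26a4, Chil3, Ccl8, Agr2, Ccl9 and Adam8 had a window without them.

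Another 6 genes, picked by this pattern, were high in exposed mouse 4 and not in exposed mouse 5, and several of them are made by macrophages. The list of 18 macrophage and monocyte markers had a mean shift of 0.57, 0.15, -0.18, -0.01 and 0.18 in exposed mice 1 to 5 and of -0.09 to 0.07 in vehicle mice. Fcna, a ficolin of the lectin pathway of complement made by macrophages, was 2.95, 1.39, -0.95, 1.96 and -0.55 in exposed mice and -0.87 to -0.45 in vehicle mice, a difference of 1.63 ± 0.40 (SE; limma unadjusted p = 0.000154, adjusted p = 0.52). Cd5l, a secreted macrophage protein, was 4.43, 3.03, 0.36, 3.13 and 0.43 against 0.44 to 0.74. Cxcl13, which attracts B cells, was 4.02, 2.03, 0.55, 3.31 and 0.35 against 0.39 to 0.81. Exposed mice 1, 2 and 4 were high for each of these genes, and exposed mice 3 and 5 were in or close to the vehicle range. Prg4, a lubricating proteoglycan of serous surfaces, was 3.44, 3.70, 0.11, 3.69 and 0.38 against 0.19 to 0.95, and Alox15, a lipoxygenase of resident peritoneal and pleural macrophages, was 2.11, 1.40, 0.15, 1.88 and 0.17 against 0.21 to 0.35. Cfp, properdin of the alternative complement pathway, was 2.51, 2.59, 0.31, 1.58 and 0.83 against 0.31 to 0.54, a difference of 1.13 ± 0.29. Over all genes, 6 exceeded the highest vehicle mouse by more than 1 log2 unit in exposed mice 1, 2 and 4 and in no other exposed mouse (Prg4, Cd5l, Fcna, Cxcl13, Alox15 and Cfp). The 10 genes that did so in exposed mice 1, 2 and 5 alone were Clca1, Fbp1, Slc26a4, Chil3, Retnla, Ccl8, Ccl24, Agr2, Ccl9 and Adam8.

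Adipocyte genes were highest in exposed mouse 4. Adipoq, the adipocyte hormone adiponectin, was 3.83, 1.95, 0.89, 5.33 and 0.55 in exposed mice and 2.30, -0.19, 0.12 and 0.18 in vehicle mice. The mean shift of 17 adipocyte genes was 1.35, 0.58, 0.12, 2.07 and 0.02 in exposed mice 1 to 5 and 0.67, -0.51, -0.06 and -0.10 in vehicle mice. Of the 17, 9 were higher at an unadjusted p below 0.05 (against 3.21% of all genes) and 0 were lower, with a median difference of 0.72. Without exposed mouse 4 the count was 2 and the median 0.28, without vehicle mouse 2 the count was 6, and with the 9 arrays alone it was 4. Exposed mice 4 and 1, in which Cd5l, Prg4 and Cxcl13 were high, thus also had high adipocyte RNA, whereas exposed mouse 2 lay within the vehicle range of the list. Vehicle mouse 1, with a shift of 0.67, had Cd5l of 0.65 and Prg4 of 0.45. The part of adjoining fat or serous tissue in the values of these genes was not tested.

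Skeletal muscle RNA was seen in 1 mouse. Acta1, skeletal alpha-actin, was 5.75 in exposed mouse 1 and between -2.37 and -1.37 in the other exposed mice, and -2.64 to -2.29 in vehicle mice. The 14 skeletal muscle genes had a mean shift of 4.86 in exposed mouse 1 and of 0.02 to 0.31 in exposed mice 2 to 5. Their median difference of 1.03 between the groups became 0.09 without exposed mouse 1. The same mouse had the highest values of Ccl24, Ccl8, Ccl11 and Agr2. The skeletal shift was 0.02 in exposed mouse 5, in which Clca1 was 6.83, and the part of muscle content in these values was not tested.

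**Figure D2:**
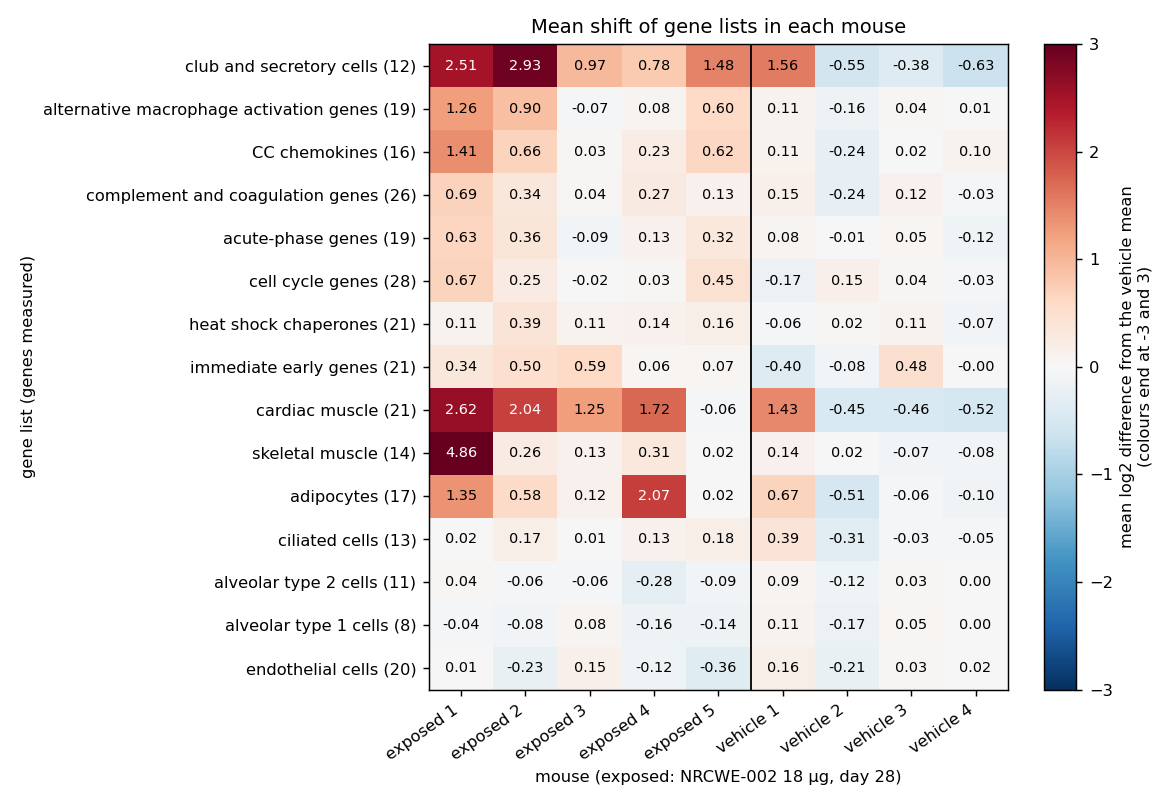
Mean log2 difference from the vehicle mean over the measured genes of 15 lists (rows, with the number of genes) in each of the 9 mice (columns), in colours that end at -3 and 3. The macrophage activation and CC chemokine lists are high in exposed mice 1, 2 and 5, while the cardiac list is high in exposed mice 1 to 4 and vehicle mouse 1, the adipocyte list in exposed mice 4 and 1, and the skeletal muscle list in exposed mouse 1.

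Saa3, the serum amyloid A of the lung, was higher in every exposed mouse than in every vehicle mouse, at 0.13, -1.58, -3.20, -2.02 and -1.94 against -3.72, -3.67, -3.46 and -3.74. The exposed mice ranged over more than 3 log2 units, whereas the vehicle mice lay close together. The difference of 1.93 ± 1.21 (SE; limma unadjusted p = 0.117, adjusted p = 0.83) did not pass at either threshold, with a standard error that rests on the spread within all 14 groups. Saa1 was -0.67 to 0.51 in exposed and -0.98 to -0.78 in vehicle mice, again without overlap, and differed by 0.54 ± 0.70, although its 2 probes gave 0.09 and 1.00, and Saa1 and Saa2 share most of their sequence, so that a probe may read both. Lcn2, an iron-binding protein of the acute phase, was 3.08, 2.41, 1.28, 1.16 and 2.32 against 1.23 to 1.49, with exposed mice 1, 2 and 5 high. Of 19 acute-phase genes 0 passed an unadjusted p below 0.05, and their median difference was 0.13. The count was 4 higher and 0 lower with the spread estimated from the 9 arrays alone, and 1 higher without exposed mouse 3.

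Heat shock and cell cycle genes differed by less than the macrophage activation genes, with largest differences of 0.74 and 0.62 against 1.97. Their median SD in exposed mice was 0.31 and 0.40, against 0.59 for the macrophage activation genes. In vehicle mice it was 0.22 for heat shock and 0.18 for cell cycle genes. Hspa1a, the inducible 70-kilodalton chaperone, was 1.31, 2.07, 1.49, 1.40 and 1.66 in exposed mice and 0.97, 0.21, 1.33 and 0.89 in vehicle mice, a difference of 0.74 ± 0.21 (SE; limma unadjusted p = 0.000794, adjusted p = 0.564). Hsph1, its nucleotide exchange partner, was -0.66, -0.42, -0.52, -0.45 and -0.09 against -1.07, -1.37, -0.77 and -1.30, a difference of 0.70 ± 0.20 (SE; limma unadjusted p = 0.000929). All 5 exposed mice lay above all vehicle mice for Hsph1, and for Hspa1a the lowest exposed mouse was just under vehicle mouse 3. Hspa1b, a near-identical copy of Hspa1a whose probe signal cannot be separated from it with certainty, was 0.14 to 0.44 against -0.14 to 0.04, with 0.09 and 0.41 as the differences of its 2 probes. Of 21 chaperones 4 were higher at an unadjusted p below 0.05 (against 3.21% of all genes) and 0 were lower, with a median difference of 0.12.

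Among 28 cell cycle genes 26 had a positive difference, and the median difference was 0.27. At an unadjusted p below 0.05, 7 were higher (against 3.21% of all genes) and 0 were lower. The mean shift was 0.67, 0.25, -0.02, 0.03 and 0.45 in exposed mice 1 to 5 and -0.17 to 0.15 in vehicle mice, so that exposed mice 1 and 5 were the highest. The mitotic kinases Plk1 and Aurka lay above all vehicle mice in all 5 exposed mice, with differences of 0.37 ± 0.13 and 0.53 ± 0.21. The count of higher cell cycle genes was 1 without exposed mouse 1, 2 without vehicle mouse 1 or 4, 4 without exposed mouse 5 or vehicle mouse 3, 14 without exposed mouse 3, 11 without exposed mouse 4 and 3 with the 9 arrays alone. Creld2, a chaperone of the endoplasmic reticulum, was also higher without overlap, at -1.03 to -0.61 against -1.45 to -1.11 (0.46 ± 0.12, SE; limma unadjusted p = 0.000502).

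Immediate early genes are induced within minutes of handling as well as by growth factors. Of 21, 5 were higher (against 3.21% of all genes) and 0 lower, with a median difference of 0.29. Egr1 was -2.12 to -1.32 in exposed and -3.46 to -1.93 in vehicle mice, and Nr4a1 was -0.17 to 1.28 and -0.88 to 0.84, so the groups overlapped for both. The mean shift of this list was 0.34, 0.50, 0.59, 0.06 and 0.07 in exposed mice and -0.40, -0.08, 0.48 and -0.00 in vehicle mice. The count was 1 without exposed mouse 2 and 10 without vehicle mouse 3.

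The genes that were lower in all 5 exposed mice than in all vehicle mice had smaller differences. Over all genes 0.8% were so separated below and 0.647% above, and genes were named in part for this. Antxr1, a collagen-binding receptor of stromal cells, was 1.50, 0.89, 1.70, 1.51 and 1.71 in exposed mice and 1.87, 2.29, 1.99 and 2.00 in vehicle mice. Its difference of -0.58 ± 0.13 (SE) had an unadjusted p of 5.3e-05 by limma and an adjusted p of 0.52. Cd300e, a receptor of nonclassical monocytes, was 0.89 to 1.37 against 1.38 to 2.24, and Hsd11b1, the enzyme that regenerates active glucocorticoid, was 4.76 to 5.21 against 5.34 to 5.75. The gap between the groups was narrow for Cd300e and Hsd11b1. Postn, the matricellular protein periostin, was 2.99 to 3.39 against 3.49 to 3.66, and Unc5c, a netrin receptor, was 0.94 to 1.16 against 1.23 to 1.85. The differences of these 4 genes were -0.61 ± 0.18, -0.53 ± 0.21, -0.37 ± 0.15 and -0.48 ± 0.18 in that order. Mpp6, a membrane scaffold protein, was higher without overlap, at -1.48 to -0.99 in exposed mice and -1.94 to -1.55 in vehicle mice (0.60 ± 0.15). NK cell genes had a median difference of -0.21, with 0 higher and 2 lower of 13 at an unadjusted p below 0.05, against 2.86% of all genes lower. Interferon-stimulated genes had a median of 0.02, with 1 lower of 27, near that share of all genes. Their mean shift was 0.55 in exposed mouse 1, -0.15 to 0.05 in the other exposed mice and -0.05 to 0.03 in vehicle mice. For ciliated cells, alveolar type 1 cells and endothelial cells 0 genes passed in either direction, and the medians were 0.06, -0.07 and -0.13.

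Without exposed mouse 3, the 12 genes with an adjusted p below 0.05 included Fcna and Prg2 (adjusted p = 0.00971 each), Fbp1 (0.0132), Ccl24 and Cfp (0.0158 each) and Ccl11, Muc5ac and Antxr1 (0.0429 each), all by limma. Without exposed mouse 4 the single gene was Fbp1 (0.0485). Exposed mouse 3 was the mouse with values in or near the vehicle range for most of the genes above, so the calls without it describe the other 4 mice.

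The spread between mice was larger in the exposed than in the vehicle group, a direction that turned when exposed mouse 2 alone was left out. The median over genes of the SD was 0.195 in exposed and 0.141 in vehicle mice, and the exposed group was 2nd of the 14 groups in this measure. It lay between the day 28 groups with 162 µg (0.209) and 54 µg (0.170) of NRCWE-002. Those groups also had an array on the slide of exposed mouse 2. The SD exceeded 1 log2 unit for 162 genes in exposed and 31 in vehicle mice, and it was larger in exposed mice for 65.8% of the genes. Without exposed mouse 2 the median SD of the exposed group was 0.130, below that of all 4 vehicle mice. No vehicle mouse was left out for the spread, so this comparison is 1-sided. Vehicle mouse 2 had a median correlation of 0.945 with its group, against 0.976 to 0.981 for the other vehicle mice. The correlation of arrays across genes, given as a description, was 0.858 to 0.977 within the exposed and 0.937 to 0.986 within the vehicle group, and its median with the other exposed arrays was 0.865 for exposed mouse 2, 0.932 for exposed mouse 1 and 0.946 to 0.952 for the other 3.

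The genes that lay more than 1 log2 unit above the highest vehicle mouse numbered 214, 323, 1, 37 and 18 in exposed mice 1 to 5, and those as far below the lowest vehicle mouse numbered 1, 120, 1, 0 and 8. In all, 530 genes (3.01%) were so high in at least 1 exposed mouse and 130 (0.737%) so low. Vehicle mice 1 to 4, each set against the other 3, had 59, 45, 10 and 0 genes above and 2, 27, 2 and 1 below. Exposed mice 3, 4 and 5 thus had no more such genes than the vehicle mouse with the most. Exposed mice 1 and 2 had more above, and exposed mouse 2 also had more below. The counts are not fully alike, because exposed mice were set against 4 vehicle mice and vehicle mice against 3. Each gene set was largely that of a single animal: 291 of the 530 were so high in exposed mouse 2 alone, led by Lars2, Grn and Ptms, and 170 in exposed mouse 1 alone, led by the muscle genes Acta1, Tnnt3 and Myh2. A further 19 were so high in exposed mouse 4 alone, led by the fatty acid elongase Elovl6 and Retn, and 5 in exposed mouse 5 alone. Saa3 was the 1 gene so high in 4 exposed mice.

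Exposed mouse 2 stood apart together with its slide. Lars2, the mitochondrial leucyl-tRNA synthetase, was 6.58 in exposed mouse 2 and 0.88 to 1.93 in the other exposed mice, against 1.35 to 2.01 in vehicle mice. The slide of exposed mouse 2 held 3 arrays, all from NRCWE-002 mice of day 28, and Lars2 was 6.66 on the array at 54 µg and 6.81 on the array at 162 µg. Genes more than 1 log2 unit below the lowest vehicle mouse numbered 179 and 165 on these arrays, against 120 in exposed mouse 2. The difference of Lars2 between the groups was 0.92 ± 0.72 over all mice and -0.07 without exposed mouse 2. The high values of Lars2 in this group thus cannot be told apart from the slide, and the part of the slide in the 291 genes was not tested. An exposed and a vehicle mouse shared a slide only for exposed mouse 1 with vehicle mouse 1, and for exposed mouse 3 with vehicle mouse 4. Within the first pair Clca1 differed by 8.09, Fbp1 by 4.53, Ccl24 by 3.98 and Retnla by 1.45, and within the second by 0.26, 0.29, 0.07 and 0.17. With the slide as a block in the fit, 0 genes passed in the comparison with vehicle.

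**Figure D3:**
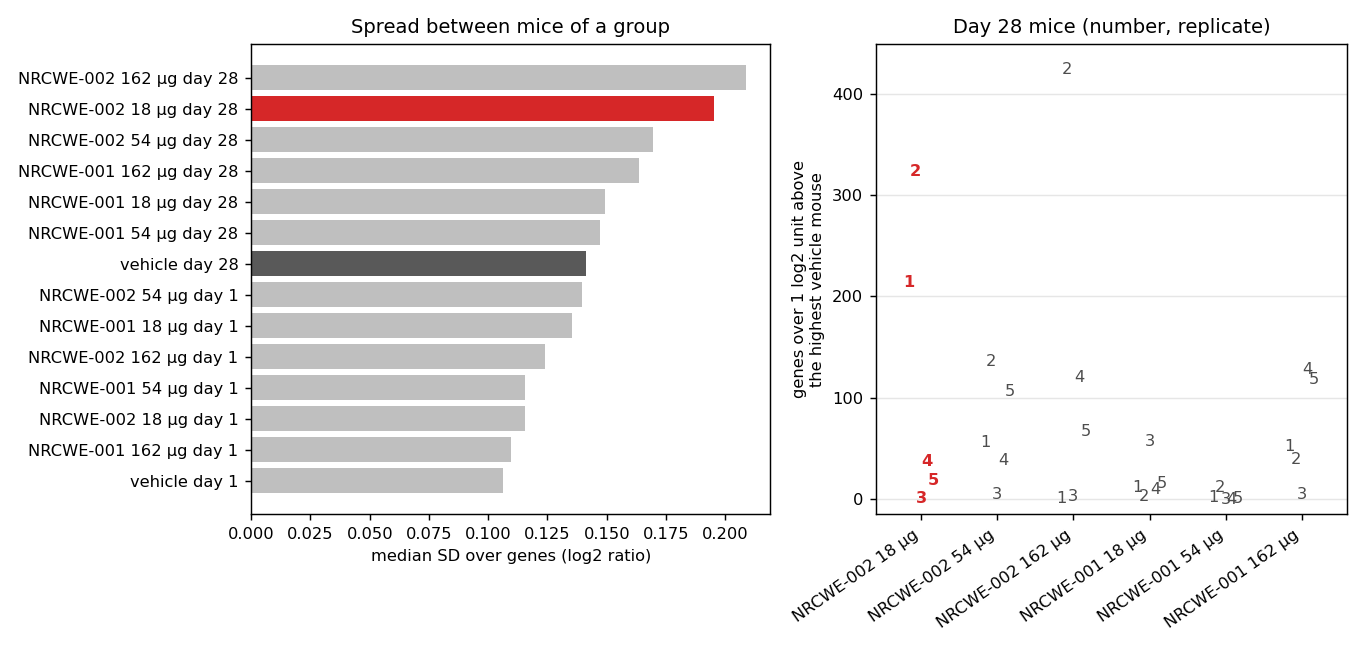
Left, median over genes of the SD between mice in each of the 14 groups (log2 ratio; red, 18 µg NRCWE-002 on day 28; dark grey, its vehicle group). Right, number of genes more than 1 log2 unit above the highest day 28 vehicle mouse in each exposed mouse of day 28, with the replicate number as the symbol. The group had the 2nd largest median SD, 0.195, between the 162 and 54 µg groups of NRCWE-002 on day 28. It was 0.130 without exposed mouse 2, and the mice of the group ran from 1 to 323 such genes.

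High Clca1 was also seen in single mice of the other groups of day 28. It exceeded the highest vehicle mouse by more than 1 log2 unit in 3 of 5 mice at 18 µg of NRCWE-002, in 3 of 5 at 54 µg and in 2 of 5 at 162 µg. It did so in 4 of 5 mice at 18 µg of NRCWE-001 and in 1 of 5 at each of its higher doses. The highest Clca1 value was 9.52 at 18 µg, 8.06 at 54 µg and 2.68 at 162 µg of NRCWE-002, so the highest value did not increase with dose. Fbp1 was so high in 3 of 5 mice at 18 µg of NRCWE-002, 1 of 5 at 54 µg and 0 of 5 at 162 µg, and in 1 of 5 NRCWE-001 mice at 18 µg and in 1 of 5 at 54 µg. Ccl24 was so high in 3 mice at 18 µg of NRCWE-002 and in 0 at the higher doses of either particle. Its count at 18 µg of NRCWE-001 is not given here, and its difference between the particles at that dose did not pass the threshold. On day 1 the 5 mice with 18 µg of NRCWE-002 had Clca1 of -0.08 to 0.60 and Fbp1 of -0.04 to 0.23.

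The direct comparisons with these groups were tested in the same fit. Between 18 and 162 µg of NRCWE-002 on day 28, 0 of 17628 genes passed by limma, with 203 higher and 220 lower at an unadjusted p below 0.05 and 0.3 as the smallest adjusted p. Fbp1 was 2.75 ± 0.61 (SE) higher at 18 µg, and Clca1 4.06 ± 1.35. Between 18 and 54 µg 0 genes passed, with 254 higher and 328 lower unadjusted, and Clca1 differed by 1.74 ± 1.35. The difference from the vehicle mice on day 28 was also compared with that on day 1, and 0 genes passed, with 349 higher and 307 lower unadjusted and a smallest adjusted p of 0.507. This difference between days was 5.32 ± 1.97 for Clca1, 2.72 ± 0.90 for Fbp1 and 1.01 ± 0.28 for Ccl11 (limma unadjusted p = 0.000575 for Ccl11). Saa3 medians on day 28 were -1.94, -2.96 and -0.76 at 18, 54 and 162 µg of NRCWE-002 and -3.70 in vehicle mice, and the lowest mouse at 162 µg was -3.46.

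**Figure D4:**
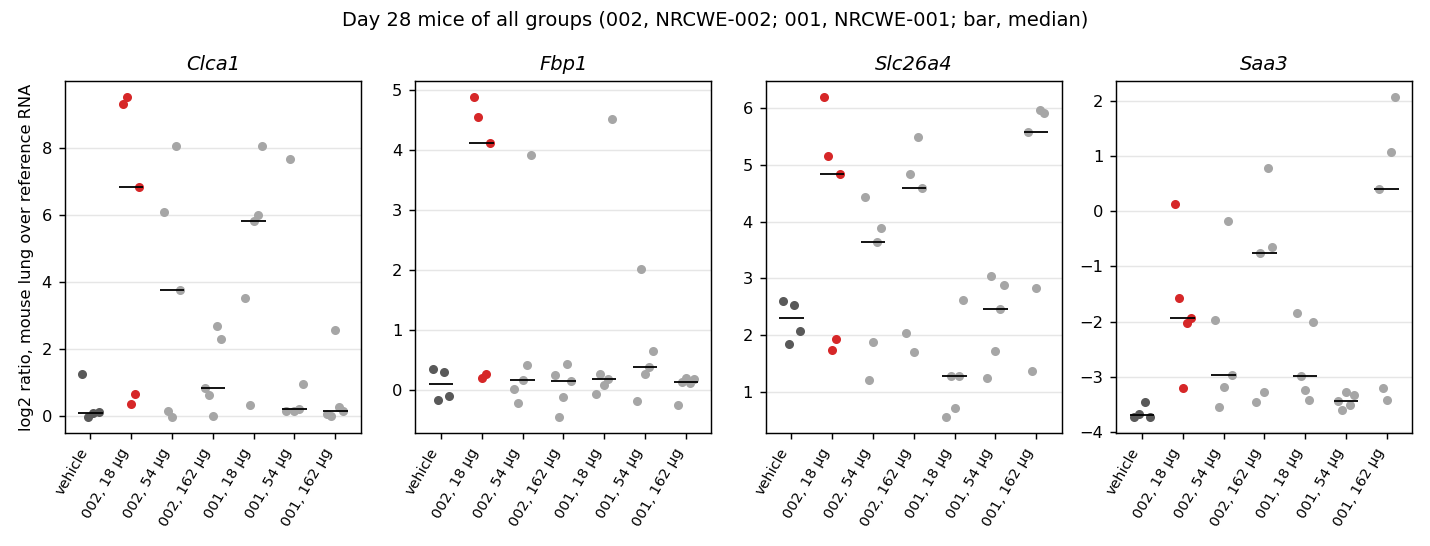
Log2 ratio of lung over reference RNA of Clca1, Fbp1, Slc26a4 and Saa3 in each mouse of the 7 groups of day 28 (points; bar, median; dark grey, vehicle; red, 18 µg NRCWE-002). The groups with high Clca1 have mice at both ends of the range, 0.36 to 9.52 at 18 µg NRCWE-002, and Fbp1 above 4 is seen in 3 mice of that group.

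The 2 particles, which differ in surface charge, were compared directly at 18 µg on day 28. Here 21 of 17628 genes (0.119%) had an adjusted p below 0.05 by limma, of which 7 were higher and 14 lower with NRCWE-002, besides 915 higher and 685 lower at an unadjusted p below 0.05. The count was 8 with the day 28 arrays alone and 36 with median centring in place of loess. With the slide it was 20 as a fixed and 41 as a random block. Only exposed mouse 5 and NRCWE-001 mouse 4 shared a slide or a scan day, so particle and slide cannot be fully told apart. The largest difference was in Spon2, a secreted matrix protein, at -0.30, 1.20, -1.03, -1.11 and -0.33 with NRCWE-002 and -2.25, -1.78, -1.79, -1.89 and -1.80 with NRCWE-001 (1.59 ± 0.27, SE; limma adjusted p = 0.000841). The vehicle mice, at -1.13 to -0.41, overlapped the NRCWE-002 mice and lay above all NRCWE-001 mice.

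Hspa1a was lower with NRCWE-002, at 1.31, 2.07, 1.49, 1.40 and 1.66, than with NRCWE-001, at 3.14, 3.03, 3.05, 2.74 and 2.80 (-1.36 ± 0.20, SE; limma adjusted p = 3.4e-05). Hspa1b, its copy, was lower by 0.73 ± 0.10 on the log2 scale and Chordc1, a cochaperone, by 0.43 ± 0.09. The remaining lower genes included Per2, a repressor of the circadian clock (-0.69 ± 0.12), Tef, a clock-controlled factor (-0.39 ± 0.08), the glucocorticoid-induced Tsc22d3 (-0.97 ± 0.22), the endoplasmic reticulum stress gene Herpud1 (-0.61 ± 0.13), and the factors Srf (-0.45 ± 0.08), Jdp2 (-0.48 ± 0.08) and Creb5 (-0.89 ± 0.17). In 20 of the 21 genes the mice of the groups did not overlap, with Neurl2 as the exception. The genes were called by the test of these same mice, so the lack of overlap adds no further support. For Per2, Srf and Jdp2 the NRCWE-002 mice had differences from vehicle of -0.11 ± 0.13, -0.02 ± 0.09 and -0.07 ± 0.09. Of the 21 genes, 8 were called in each of the 10 fits that left out 1 mouse of either group, namely Hspa1a, Hspa1b, Jdp2, Per2, Slc25a33, Spon2, Srf and Tspan4, while the count itself was 10 without exposed mouse 2, 12 without the 1st NRCWE-001 mouse and 55 without exposed mouse 3.

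For the mucous and macrophage genes no difference between the particles passed. Clca1 was 0.59 ± 1.35 (SE; limma adjusted p = 0.925) higher with NRCWE-002, Retnla 0.87 ± 0.52, Fbp1 1.80 ± 0.61, Ccl24 1.38 ± 0.46 and Slc26a4 2.69 ± 0.81, with adjusted p of 0.209 or more for these genes. The standard errors leave room for large differences in either direction for Clca1.

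**Figure D5:**
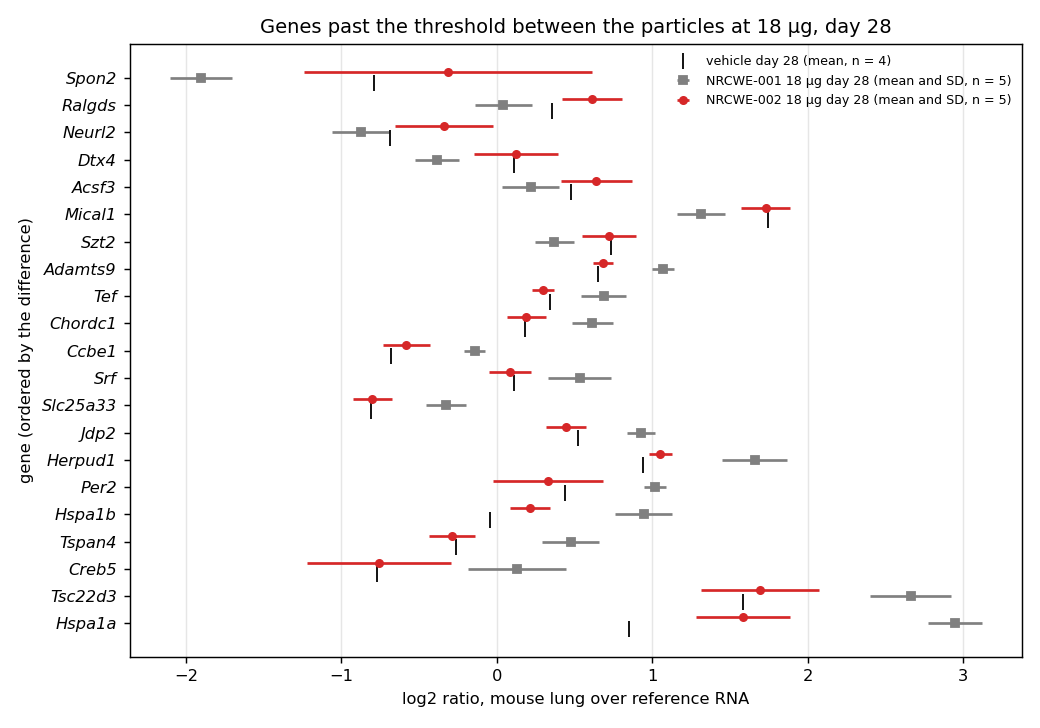
The 21 genes with an adjusted p below 0.05 between NRCWE-002 (red circles) and NRCWE-001 (grey squares) at 18 µg on day 28, as means with SD over 5 mice (log2 ratio of lung over reference RNA), with the vehicle mean of 4 mice as a black tick. Hspa1a is 1.59 with NRCWE-002 and 2.95 with NRCWE-001, and the NRCWE-002 mean is the nearer to the vehicle tick for most genes.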

How the data were processed

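Lung RNA (Cy5) was hybridised with a reference RNA (Cy3) on 2-colour Agilent arrays, without dye swaps. The authors scanned the arrays and deposited the intensity and local background of each spot from Agilent Feature Extraction 11.0.1.1, and processed signals. The authors' deposited log2 ratios, LOWESS-normalized, served as an alternative. Median intensities were corrected with limma 3.58.1 (R 4.3.3; normexp, offset 50) and loess-normalized within arrays. Of 41174 probes 66.7% matched a RefSeq symbol (GRCm38.p6). Probes well above background on at least 4 of 69 arrays were kept, and genes took the median of their probes. Group means of all 69 arrays were fitted with limma, and p-values were adjusted by Benjamini-Hochberg over 17628 genes. The number of arrays limits precision. The scripts were tested on simulated data. Alternatives covered the arrays used, slide, scan day, array weights, normalization, background, probe filter and single arrays. Genes were named by smallest p per list, largest separated differences, largest spread and calls, and others were chosen after their values were seen. Members and lists were chosen with earlier results of these data known.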

Additional observations from a re-analysis of the deposited data

Results flagged for a closer look

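For 97 genes in both groups (194 tests), the gap between the highest or lowest mouse and its neighbour was set against the range of the group, and 27 gaps exceeded the critical value of Dixon's test. Chance alone passes about 1 in 20 such groups, but many of these genes had been chosen for their spread or after their values were seen, so the number of gaps is a description and is read against no rate. Vehicle mouse 1 was the highest in 8 of them, with a gap of 0.901 of the range for Clca1, 0.914 for Muc5b, 0.926 for Tff2, 0.914 for Bpifb1, 0.945 for Myl7, 0.853 for Nppa, 0.853 for Adipoq and 0.832 for Retn. These are airway, cardiac and adipocyte genes. Exposed mouse 1 was the highest in 9, which were the skeletal muscle genes Acta1 (0.877), Tnnc2 (0.912), Tnnt3 (0.902), Mylpf (0.916) and Tnni2 (0.934), and Nmrk2 (0.961), Saa1 (0.779), Saa2 (0.773) and Il4 (0.817).

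Exposed mouse 2 was the highest for Lars2 (0.816) and Hspa1b (0.885) and the lowest for Antxr1 (0.744), Garre1 (0.726) and Ice1 (0.72). Exposed mouse 5 was the lowest for the cardiac gene Myh6 (0.721). Vehicle mouse 2 was the lowest for Hsp90aa1 (0.864) and Plk1 (0.888) and the highest for Tk1 (0.879), and vehicle mouse 4 was the highest for Il13 (0.887), whose values were all near 0.

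A difference between groups was found for the particles at 18 µg on day 28, with 21 genes past the threshold in the test of the difference itself. These groups lay mostly on different slides. The largest log2 differences, NRCWE-002 minus NRCWE-001, were 1.59 for Spon2, 0.569 for Ralgds, 0.534 for Neurl2, 0.504 for Dtx4 and 0.422 for Acsf3, and -1.36 for Hspa1a, -0.972 for Tsc22d3, -0.888 for Creb5, -0.76 for Tspan4 and -0.733 for Hspa1b.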

How the results depend on the processing

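The count of 0 genes between exposed and vehicle mice was found under all 13 alternatives that kept all 9 mice of the comparison, and leaving out 1 mouse at a time gave 0 to 12. Between the particles the 21 genes became 8 with the day 28 arrays alone, 41 with the slide as a random block (correlation 0.47) and 36 with median centring, and 10 to 55 without single mice. Leaving out the NRCWE-001 mice, and all alternatives for the spread, were added after the data were examined. Against 162 µg the count of 0 became 2 with the slide as a random block and 1 with processed signals, with 0 to 3 without single mice. Against 54 µg it became 2 with the slide and 1 with the scan day as a fixed block, with 0 to 2 without single mice. The difference between days gave 0 throughout. The median SD of 0.195 became 0.309 with median centring and 0.414 with processed signals, and 0.130 to 0.205 without single mice. Of 2124 values of 97 genes under 22 settings, 9 reversed. Lars2 became -0.18 with the slide and -0.19 with the scan day as a block, and ran from -0.065 (without exposed mouse 2) to 1.36 without single mice. Saa2 ran from -0.024 to 0.19 and Mylpf from -0.18 to 1.34, both lowest without exposed mouse 1. Il4, near 0, became -0.00052 without background correction and -0.0023 with the authors' deposited log2 ratios, and ran from -0.0026 to 0.073 without single mice, with values below 0 without exposed mouse 1 and without vehicle mouse 3 (-0.0012). The cause of these changes was not tested. No paired analysis was possible because the labels give a running sample number that links no exposed mouse to a vehicle mouse, and blocks were slide or scan day. Genes near background, such as Clca1 in vehicle mice, have compressed ratios.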
